A study of Mus musculus with 2 samples.

Results

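Described here are 98 endothelial cells (ECs) of the stria vascularis (SV) of the mouse cochlea that lay in the middle range of an arterial-to-venous score computed from their own counts. They are called mid-score ECs below. They came from the 633 barcodes of a single-cell library of Tie2-GFP mice, in a series of 2 libraries with 834 barcodes. Each barcode stands for a captured cell, and each unique molecular identifier (UMI) counts 1 captured RNA molecule. A barcode passed when at most 5% of its UMIs were mitochondrial, which left 405. It also needed a UMI of at least 4 of the endothelial genes Pecam1, Cdh5, Cldn5, Flt1, Egfl7 and Ramp2, which left 372. Finally, at most 1 of the mural genes Rgs5, Pdgfrb, Vtn, Notch3, Kcnj8 and Abcc9 could have a UMI, which left 336 gated ECs. For each of these the UMIs of 6 genes of arterial ECs (Gja4, Gja5, Bmx, Sema3g, Vegfc and Hey1, summed as A) and of 3 genes of venous and capillary-venous ECs (Nr2f2, Slc38a5 and Vcam1, summed as V) were set against the total UMIs T, and the score was ln(1 + 10000 A/T) minus ln(1 + 10000 V/T). ECs strictly between the 25th and 75th percentiles of the score were taken, 29.2% of the gated ECs (95% Clopper-Pearson interval 24.4 to 34.3%).

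The study examined ECs and pericytes (PCs) that form the interstitial fluid-blood barrier in the SV. Each library came from SV dissected from 10 mice aged 1 to 3 months, with the tissue of their 20 cochleae pooled before dissociation with enzymes. Fluorescence-activated sorting is described for the reporter cells where enrichment was needed, without saying for which library. The Tie2-GFP mice carry GFP under the promoter of Tie2 (Tek), which drives expression in ECs and also in some blood-derived cells, and the NG2-DsRed mice carry DsRed under that of NG2 (Cspg4), which is active in mural cells and in some glia. The mice of both libraries were untreated reporter animals as far as the labels state. Each genotype was 1 library, so the mice cannot be separated, no replicate spread exists, and no test between groups was possible. Intervals below are exact 95% intervals (Poisson for levels, Clopper-Pearson for shares, conditional binomial for ratios) and cover counting error only, neither the spread between cells nor that between mice. The libraries shared 0 cell barcodes. Totals were 5432289 UMIs in the Tie2-GFP library and 1232599 in the NG2-DsRed library, and the matrices came from different software versions. Genotype, library, depth and software version cannot be told apart when cells of both are compared.

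Capillaries of the SV lie within a secretory epithelium and feed the potassium transport that generates the endocochlear potential. Their ECs are joined by tight junctions and carry specific carriers for glucose, amino acids and other solutes, so that little passes between blood and the intrastrial fluid except by regulated transport. They share this barrier design with capillaries of the brain and retina, where Wnt/beta-catenin signalling maintains it, and PCs and perivascular macrophages cover their outer surface.

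The score was coarse at this depth. Of the 336 gated ECs, 81 had a score of exactly 0, 58 of them because no A or V gene had a UMI and 23 because A equalled V, and 73 lay below 0. The 25th percentile therefore fell at 0 and the 75th at 1.50, so the middle range lay wholly on the arterial side of 0 and every member had at least 1 UMI of an A gene. Scores of the members ran from 0.198 to 1.50 with a median of 0.937. The lowest 2 members had 0.198 and 0.223, and the nearest ECs outside had 0 on that side. The highest 2 had 1.50 and 1.48, and the lowest of the 84 arterial-leaning ECs above the upper limit had 1.51. Within 0.1 of the upper limit lay 8 members and 14 arterial-leaning ECs, so that limit runs through a continuous range and marks no separate type. In 59 members only A genes had UMIs, in 39 both A and V genes did, and 39 members owed their place to a single A UMI. The 98 members held 335 A and 115 V UMIs in all, so the classification of a member rests on very few molecules.

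**Figure D1:**
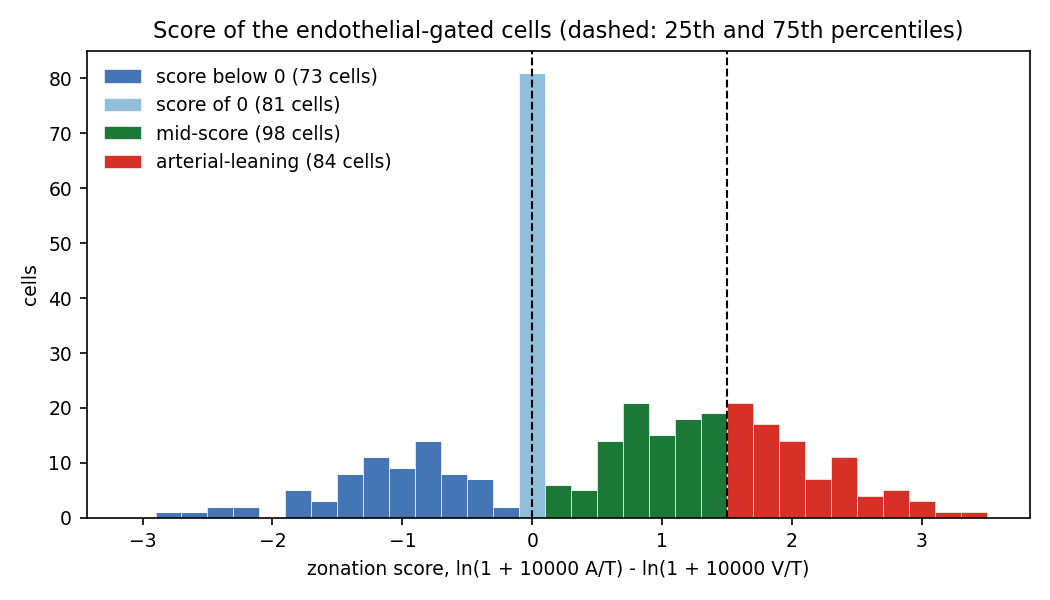
Histogram of the score (x axis, natural log units) of the 336 gated ECs (y axis, number of cells), coloured by group, with dashed lines at the 25th and 75th percentiles. The 98 mid-score ECs fill the range between 0 and 1.50, next to a column of 81 ECs at exactly 0.

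Depth differed between the groups without a steady trend along the score. Members held 879888 UMIs, with a lowest of 2526, a median of 8243 and a highest of 31275 per cell, and a median of 2701 genes. The median was 7112 UMIs in arterial-leaning ECs, 6308 in ECs at 0 and 8034 in ECs below 0. Among members the score and the UMI count had a Spearman rho of -0.36 (n = 98 cells, which share the total as a term of the score). When the 302 gated ECs with enough UMIs were thinned to 3282 UMIs each and scored again, with 34 shallower ECs left out, a single A UMI gave 1.40, which was also the new 75th percentile, and only 12 ECs lay strictly between the limits. Of the 96 members deep enough to thin, 10 stayed between, 37 fell to 0, 6 fell below 0 and 43 reached the upper limit. Levels below are UMIs summed over the cells of a group, per 1000000 of all their UMIs (CPM). The counting takes the 3′ end of each RNA, so CPM was not divided by gene length. Groups of cells compared below differ in A and V genes by construction.

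Members were selected on the measured UMIs of the gate and score genes, which therefore give a description only. Bmx, a kinase of arterial endothelium, supplied most of the A signal, with 247 CPM and UMIs in 77.6% of members. Its level was 354 CPM in arterial-leaning ECs and 46.0 CPM in the 154 ECs at or below the 25th percentile. Sema3g, a semaphorin of arterial ECs, followed with 78.4 CPM, whereas the gap junction gene Gja4 had 20.5, the Notch target Hey1 19.3, the growth factor Vegfc 14.8 and Gja5 1.14 CPM. Of the V genes, the adhesion molecule Vcam1 had 73.9 CPM but UMIs in only 9.18% of members, with up to 24 in a single cell. Nr2f2, a transcription factor of venous identity, had 36.4 CPM and the amino acid carrier Slc38a5 had 20.5 CPM. All 6 endothelial gate genes had UMIs in 82 members and 5 of them in the other 16.

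The name under which these cells were proposed, mid-zone capillary ECs, was checked against its markers. Cldn5, the main claudin of barrier ECs, had 2184 CPM (2088 to 2284), and the VEGF receptor Flt1 had 2147 CPM (2051 to 2246). Egfl7, a secreted endothelial protein, had 849 CPM. All 3 belong to the gate. The other markers, the glucose carrier Slc2a1 and the efflux pump Abcb1a, took no part in the selection, and both were present in nearly every member (below). The capillary part of the name was less clear. A list of 20 capillary genes summed to 5072 CPM in members, 5348 CPM in arterial-leaning ECs and 5117 CPM in ECs at or below the 25th percentile, and per cell it took a median 0.507% of UMIs in members against 0.529% in arterial-leaning ECs. Single genes of the list did differ by more than 1.5-fold. Of the 12 with enough UMIs for the comparison, Mfsd2a, Spock2 and Cxcl12 were higher in members than in ECs at or below the 25th percentile, beside 2.94% of all 4245 genes compared, and Gpihbp1, the lipase anchor of capillaries, was lower. Of that group, ECs at 0 had 42.8 CPM of Mfsd2a and 405 CPM of Cxcl12, and ECs below 0 had 39.5 and 158 CPM. Mfsd2a had 62.5 CPM in members, but 19.2 CPM in the 12 members scored from thinned cells. Against arterial-leaning ECs only Gpihbp1 was past the 1.5-fold limit, with 117 CPM in members and 53.2 CPM there, beside 4.88% of all genes. Cd36, Btnl9, Timp4 and Lpl, capillary genes of other organs, and Slc16a1, the lactate carrier of brain capillaries, had 0 UMIs in members, which allows up to 3.41 CPM each.

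Few RNAs of other cells were found. Genes of intermediate cells, the pigment cells of the SV, summed to 35 UMIs (39.8 CPM) in members, led by the melanin gene Dct with 14 UMIs, and Tyrp1, Tyr and Slc45a2 were at 0. The same list summed to 27861 CPM in 141 barcodes of the same library that carried at least 3 markers of intermediate or marginal cells. Genes of marginal cells, the secretory epithelium, summed to 51.1 CPM in members against 7148 CPM in those barcodes, led by the cotransporter Slc12a2 with 23 UMIs. Of 12 mural genes outside the gate 9 were at 0, and 41 of the 58 UMIs of the list were Mcam, which ECs also express. The gate allowed UMIs of at most 1 of its mural genes, so a low level of other mural genes was built in. Basal cell and fibrocyte genes had 3 UMIs, haemoglobin genes and Alas2 14, Schwann cell genes 23 (20 of them Pmp22) and lymphatic genes 1. No member had UMIs of 3 or more genes of any of these lists. Droplets can also take up free RNA of lysed cells. Ptgds, a prostaglandin synthase chosen after its values were seen, had UMIs in 55.1% of members (33.3% once thinned to 3282 UMIs) at a level of 116 CPM, against 35297 CPM in intermediate or marginal barcodes, whose median depth was 12226 UMIs. The part of free RNA in this level was not tested.

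The glucose carrier and the main efflux pumps of the barrier had UMIs in nearly all members. Slc2a1 (GLUT1, which carries glucose across the barrier, chr4:119108711-119137983, plus strand) had a lowest of 1, a median of 15 and a highest of 68 UMIs per cell and was the only label marker with UMIs in every member. Its level was 1987 CPM (1895 to 2082) in members, 2103 CPM in arterial-leaning ECs and 2185 CPM in ECs at or below the 25th percentile. The log2 ratio of members was -0.08 (-0.18 to 0.02) to the former and -0.14 (-0.23 to -0.05) to the latter, so the glucose carrier varied little along the score. It had 73.9 CPM in intermediate or marginal barcodes and 34.3 CPM in 95 mural barcodes of the NG2-DsRed library.

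Abcb1a (P-glycoprotein, which pumps drugs and lipophilic molecules back into blood, chr5:8660077-8748575, plus strand) had 1179 CPM (1108 to 1252), with a lowest of 0, a median of 8 and a highest of 49 UMIs per cell and UMIs in 97 of 98 members. The log2 ratio was 0.05 (-0.08 to 0.19) to arterial-leaning ECs and 0.04 (-0.08 to 0.16) to ECs at or below the 25th percentile, so both intervals span 0. Another efflux pump, Abcg2, had 1109 CPM and UMIs in every member, and Slco1a4, a carrier of organic anions, had 1091 CPM. The lipid exporters Abca1 and Abcg1 were lower, at 166 and 62.5 CPM. Relative to arterial-leaning ECs their log2 ratios were 1.29 (0.83 to 1.81) and 1.54 (0.73 to 2.51).

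Several amino acid carriers had UMIs in most members. Slc3a2 and Slc7a5, the chains of the large neutral amino acid carrier, had 996 and 442 CPM, and Slc38a2, a sodium-coupled carrier of small neutral amino acids, had 1273 CPM. Slc7a5 lay between the neighbouring groups, with a log2 ratio of 0.46 to arterial-leaning ECs and -0.43 to ECs at or below the 25th percentile. Mfsd2a, the lysophospholipid carrier that limits vesicle transport in brain capillaries, had 62.5 CPM and UMIs in 24.5% of members (12.5% after thinning). Tfrc, the transferrin receptor, had 52.3 CPM, and Plvap, a diaphragm protein of leaky capillaries, had 51.1 CPM against 1.67 CPM in intermediate or marginal barcodes. Of 4245 genes with at least 100 UMIs over the 3 groups of ECs, 4.88% were more than 1.5-fold higher in members than in arterial-leaning ECs and 4.76% more than 1.5-fold lower. Against ECs at or below the 25th percentile the shares were 2.94% higher and 2.5% lower. Of the 12 tested solute carriers of the barrier, Slco2b1 was higher and Slc6a6 lower than in arterial-leaning ECs, Slc6a6 was higher than in ECs at or below the 25th percentile, and the others lay inside the limit.

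Junction and vesicle genes varied as little. Esam, an adhesion molecule of endothelial junctions, had 498 CPM, the scaffold Tjp1 417 CPM, Jam2 161 CPM and the tight junction protein Ocln 90.9 CPM. The median log2 ratio of 13 tested junction genes was 0.12 to arterial-leaning ECs and -0.00 to ECs at or below the 25th percentile, beside -0.00 and 0.00 over all tested genes, with Jam3 among those past the limit against arterial-leaning ECs. Cavin2, which shapes caveolae, had 849 CPM and a median of 6 UMIs per cell, whereas Cav1, the caveolae coat protein, had 72.7 CPM. The tetraspanin Cd9 had 311 CPM in members and 539 CPM in arterial-leaning ECs. It was the single gene of the 14 tested in the vesicle list that was past the limit against arterial-leaning ECs.

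Components of the Wnt/beta-catenin pathway were read from receptor to target. The receptor Fzd4 had 139 CPM and its co-receptor Tspan12 107 CPM. Adgra2 (GPR124) and Reck, which together make the WNT7 receptor complex of barrier ECs, had 76.1 and 101 CPM. The transducer Ctnnb1 had 616 CPM. Lef1, a transcription factor that beta-catenin binds, had 528 CPM, and Foxq1, a transcription factor enriched in barrier ECs, had 423 CPM. Notum, a secreted inhibitor of Wnt ligands, was at 0. The median log2 ratio of the 13 tested genes was 0.09 to arterial-leaning ECs and 0.27 to ECs at or below the 25th percentile. Adgra2 was past the 1.5-fold limit against both groups, with log2 ratios of 0.80 (0.18 to 1.47) and 1.07 (0.51 to 1.66), and mural barcodes had 115 CPM of it. Reck and Tcf7l1 were past the limit only against arterial-leaning ECs. That made 3 of 13 genes higher than in arterial-leaning ECs, beside 4.88% of all genes, and 1 of 13 higher than in ECs at or below the 25th percentile, beside 2.94%.

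The most abundant RNAs of the members were mainly housekeeping, immediate-early and heat-shock RNAs. Malat1, a nuclear noncoding RNA, led with 56301 CPM, followed by Gm42418, a locus that overlaps ribosomal RNA sequence, with 9452 CPM. Mitochondrial and ribosomal protein genes, which took 1.80% and 13.7% of the UMIs, were left out of this ranking. The actin-binding peptide gene Tmsb4x came next with 7129 CPM. Immediate-early transcription factors filled many of the following ranks: Fos had 6855 CPM (6684 to 7031), Jund 4754, Jun 4551, Junb 3746 and Atf3 3016 CPM. These genes respond within minutes to many stimuli, enzymatic dissociation among them, and its part in these levels was not tested. Chaperones of the heat-shock response were there too, with Hspb1 at 4757, Hspa1a at 3721, Hsp90ab1 at 3416, Hspa8 at 3313 and Hspa1b at 3157 CPM. Hspa1a and Hspa1b are near-identical copies, so the split between them is uncertain. Together the 25 most abundant genes held 15.8% of the UMIs, 79 genes had UMIs in every member and 1754 in at least 50% of members.

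Only a few of the 25 were endothelial in character. Igfbp7, a vascular matrix protein that binds insulin-like growth factors, had 3483 CPM against 11.1 CPM in intermediate or marginal barcodes, but 5362 CPM in mural barcodes. Ctla2a, a cysteine protease inhibitor, had 3221 CPM (3103 to 3342), and Tm4sf1, a membrane protein of migrating ECs, had 3128 CPM. Along the score they moved in opposite directions. Ctla2a had 4442 CPM in ECs at or below the 25th percentile and 2089 CPM in arterial-leaning ECs, whereas Tm4sf1 had 2797 and 4085 CPM. Fos had 7056 CPM in mural barcodes, a level close to that of the members, and 652 CPM in intermediate or marginal barcodes.

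**Figure D2:**
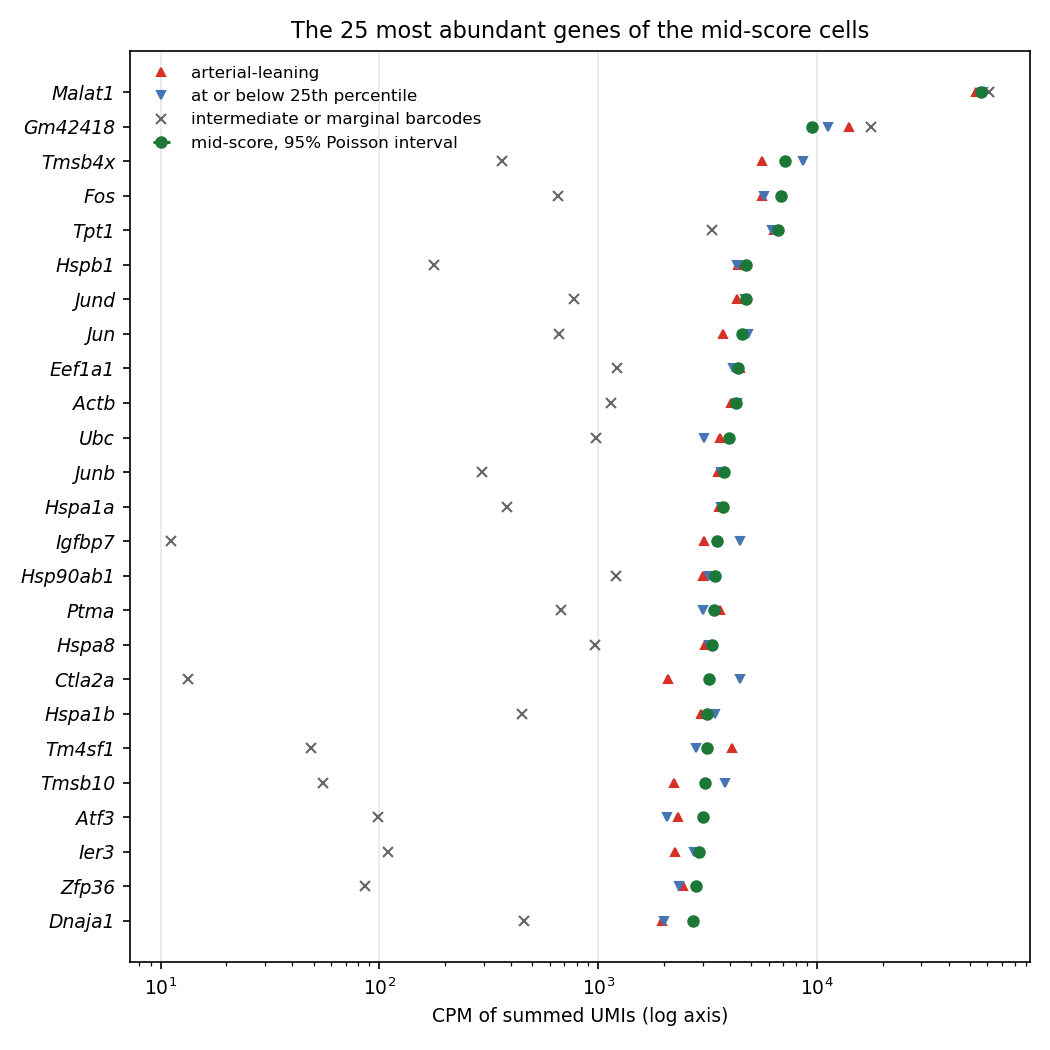
Levels (x axis, CPM on a log axis) of the 25 most abundant genes outside mitochondrial and ribosomal protein genes, in mid-score ECs (circles), in both other groups of ECs (triangles) and in intermediate or marginal barcodes (crosses). The 3 groups of ECs lie close together for most genes, and Igfbp7 and Ctla2a are at 11.1 and 13.3 CPM in intermediate or marginal barcodes.

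The most specific genes were ranked by the lower of the ratios to the 141 intermediate or marginal barcodes and the 95 mural barcodes, among 1736 genes with UMIs in at least 50% of members and outside the selection rule. Of these, 240 were more than 4-fold above both. Over the 4691 genes with enough UMIs for this comparison, 5.54% were more than 4-fold higher in members than in both and 4.35% lower than both. The other groups of ECs took no part in this ranking, so a high rank does not set members apart from other ECs. The 20 tested genes of the pan-endothelial list had a median log2 ratio of -0.04 to each of the other groups of ECs. Single ranked genes, such as Cd74, did differ between the groups of ECs (below). Both comparators were chosen to have at most 1 endothelial gate gene, so a difference in endothelial genes was built in. They also differed in depth and condition: the median was 12226 UMIs with 10.9% mitochondrial UMIs in intermediate or marginal barcodes and 3008 UMIs in mural barcodes, against 8243 UMIs and 1.60% in members.

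Spock2, a proteoglycan of the extracellular matrix, had 731 CPM and was 658-fold (181 to 5441) above intermediate or marginal barcodes and at least 78.1-fold above mural barcodes. In mural barcodes it was at 0, and the limit of 3 UMIs over the group was used for this and for other genes at 0. The order of genes at 0 in mural barcodes is set by the 0.5 UMIs added to their counts and is not read here. Tmem252, a small membrane protein of little-known function, had 1362 CPM (1286 to 1441). It had a lowest of 0, a median of 9 and a highest of 48 UMIs per cell, and was 490-fold (209 to 1512) above intermediate or marginal barcodes and at least 145-fold above mural barcodes. Abcb1a itself was in the list, 378-fold (67.7 to 14937) above mural barcodes, where it had 1 UMI. Membrane proteins of the endothelial surface made up much of the remainder: Ly6c1 had 1496 CPM and UMIs in every member, the sialomucin Cd34 735 CPM, the adhesion receptors Adgrf5 and Adgrl4 698 and 614 CPM, and Tek, the angiopoietin receptor whose promoter marked these mice, 283 CPM. Tek was at 0 in both comparators. The transcription factors Sox17 and Lef1 had 536 and 528 CPM, and Rasip1, a regulator of vessel lumens, had 440 CPM. Gja1, which forms gap junctions, had 432 CPM in members, 239 in arterial-leaning ECs and 343 in ECs at or below the 25th percentile. Ly6c1, Ctla2a and Abcb1a have close relatives in the genome, so part of their counts may be shared with those.

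**Figure D3:**
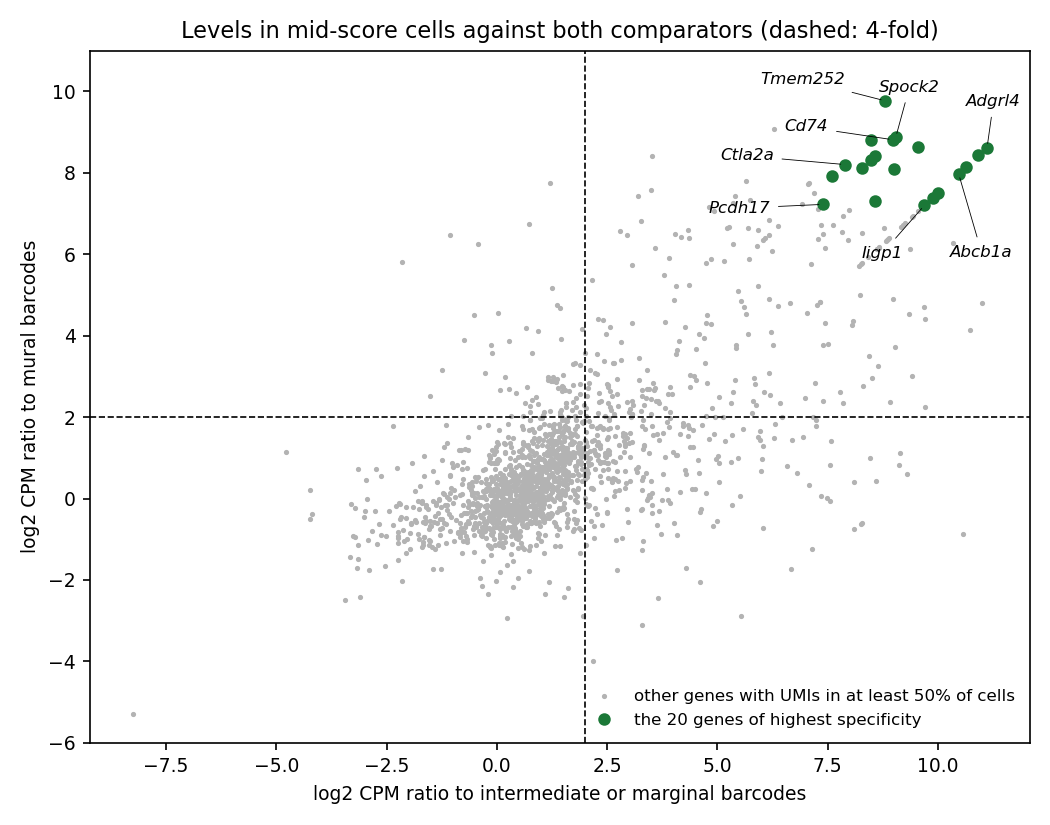
Each point is a gene with UMIs in at least 50% of mid-score ECs, placed by its log2 CPM ratio to intermediate or marginal barcodes (x axis) and to mural barcodes (y axis), with 0.5 UMIs added to each count and dashed lines at 4-fold. The 20 genes of highest specificity lie at the upper right, and 240 of 1736 genes are past both lines.

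Because genes restricted to ECs are commonly bound by ETS factors, the 250 bases before their start sites were searched for CAGGAAG, which holds the GGAA core of these factors, on both strands. RefSeq promoter sequences on build GRCm38.p6 were matched for 15 of the 20 specific genes, and Cd74, Sox17, Ecscr, Mmrn2 and Iigp1 were not matched. The letters occurred before 6 of the 15 (Cyyr1, Adgrf5, Lef1, Rasip1, Ctla2a and Cd34), beside 12.1% of 27025 genes and 10.8% of 32851 promoters of the same length. A match describes letters in a window, not a bound site. For Lef1, which has several start sites in RefSeq, the match lies before an internal start far inside the gene and not before the first, and the matches of Cyyr1 and Ctla2a also lie inside the genes as GENCODE annotates them. Shown are the windows of the 6, each 5′ to 3′ on its gene's strand, with the match in capitals, as CAGGAAG or as CTTCCTG where it lies on the other strand. They are at chr16:85550504-85550560 (minus strand, Cyyr1), chr17:43360349-43360405 (plus, Adgrf5), chr3:131156255-131156293 (plus, Lef1), chr7:45627421-45627477 (plus, Rasip1), chr13:60936590-60936646 (minus, Ctla2a) and chr1:194938654-194938710 (plus, Cd34).
Cyyr1: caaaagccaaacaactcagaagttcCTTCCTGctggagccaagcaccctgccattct
Adgrf5: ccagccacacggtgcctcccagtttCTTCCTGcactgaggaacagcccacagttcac
Lef1: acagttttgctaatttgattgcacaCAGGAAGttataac
Rasip1: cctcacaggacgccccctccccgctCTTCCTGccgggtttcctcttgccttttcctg
Ctla2a: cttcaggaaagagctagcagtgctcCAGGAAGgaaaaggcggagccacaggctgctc
Cd34: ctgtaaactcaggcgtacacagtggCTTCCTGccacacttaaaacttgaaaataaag

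Among the specific genes was 1 of antigen presentation. Cd74, the invariant chain that accompanies MHC class II molecules, had 701 CPM (647 to 759), was 631-fold (174 to 5222) above intermediate or marginal barcodes and was at 0 in mural barcodes. It was unevenly spread: 53 of 98 members had UMIs, with a lowest of 0, a median of 1 and a highest of 62, and 15 members with more than 10 UMIs held 472 of the 617 UMIs. The class II chains H2-Aa and H2-Ab1, chosen after their values were seen, had 145 and 136 CPM with UMIs in 34 and 33 members. All 3 genes had UMIs in 20 members and none in 36. H2-Eb1 had 1 UMI and Ciita, the master regulator of class II genes, had 11 UMIs.

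Macrophages lie against strial capillaries and express these genes. In members the other 9 of 10 macrophage and leukocyte genes examined, Ptprc, Cx3cr1, Csf1r, C1qa, C1qb, C1qc, Tyrobp, Cd3e and Lyz2, were all at 0. The source of the Cd74 and class II UMIs was not tested. Cd74 had 586 CPM in arterial-leaning ECs and 359 CPM in ECs at or below the 25th percentile, with log2 ratios of 0.26 (0.08 to 0.44) and 0.97 (0.79 to 1.15). Members with Cd74 were deeper, with a median of 9020 UMIs against 7112 in those without. The interferon-induced GTPase Iigp1, itself among the specific genes with 1147 CPM, had 1397 CPM in members with Cd74 and 793 CPM in those without. Arterial-leaning ECs had 1342 and 799 CPM and ECs at 0 had 1142 and 787 CPM, in the same order. In ECs below 0 the order was the other way, with 884 and 992 CPM.

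Class I genes were more even. H2-D1 had 2308 CPM with UMIs in every member, B2m, the shared light chain, 1288 CPM, and Ifitm3, an interferon-induced membrane protein, 2083 CPM. Of 19 tested genes of the class I and interferon list only Ifi27l2a was past the limit, lower than in arterial-leaning ECs with a log2 ratio of -1.12 (-1.45 to -0.81). This count is near the share of all genes that were lower there, 4.76%. Reads of H2 genes may be shared among near-identical family members. The interferon response element, searched as GAAA, any 2 bases and GAAA on both strands in the same windows, occurred before 5 of 15 matched genes of this list (H2-T23, B2m, Ifitm2, Bst2 and Isg15), beside 3.46% of all genes. The first match is shown in capitals for B2m at chr2:122147523-122147582 (plus strand) and for H2-T23 at chr17:36032791-36032850 (minus strand), the latter with the letters of the other strand and inside the gene as GENCODE annotates it.
B2m: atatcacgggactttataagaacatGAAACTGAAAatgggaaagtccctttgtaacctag
H2-T23: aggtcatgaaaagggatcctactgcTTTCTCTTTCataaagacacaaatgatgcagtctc

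Between the groups of ECs most genes differed little. The middle 50% of the 4245 tested genes had log2 ratios between -0.22 and 0.20 to arterial-leaning ECs and between -0.17 and 0.18 to ECs at or below the 25th percentile. Members lay between both other groups for 39.6% of the genes. Arterial genes outside the score followed it: the median log2 ratio of 14 tested genes was -0.36 to arterial-leaning ECs and 0.46 to ECs at or below the 25th percentile. Against arterial-leaning ECs 5 of the 14 were lower (Jag1, Fbln2, Alpl, Stmn2 and Clu), beside 4.76% of all genes, and against ECs at or below the 25th percentile 6 were higher (Jag2, Fbln2, Mgp, Alpl, Stmn2 and Clu), beside 2.94%. Venous genes outside the score had medians of 0.15 and -0.46 over 11 genes. Of these, Vwf and Ch25h were higher and Lrg1 lower than in arterial-leaning ECs, and Icam1 and Ch25h were lower than in ECs at or below the 25th percentile. Per cell, the arterial list took a median 0.435% of UMIs in members, 0.515% in arterial-leaning ECs, 0.397% in ECs at 0 and 0.429% in ECs below 0. When the score was taken from thinned cells, which left 12 members, the median to arterial-leaning ECs was 0.20 for the arterial list and -0.23 for the venous list, both with the sign turned. The venous median to arterial-leaning ECs was 0.02 with the study's limits on genes, UMIs and ribosomal share added. With a mitochondrial limit of 3% it was 0.04.

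**Figure D4:**
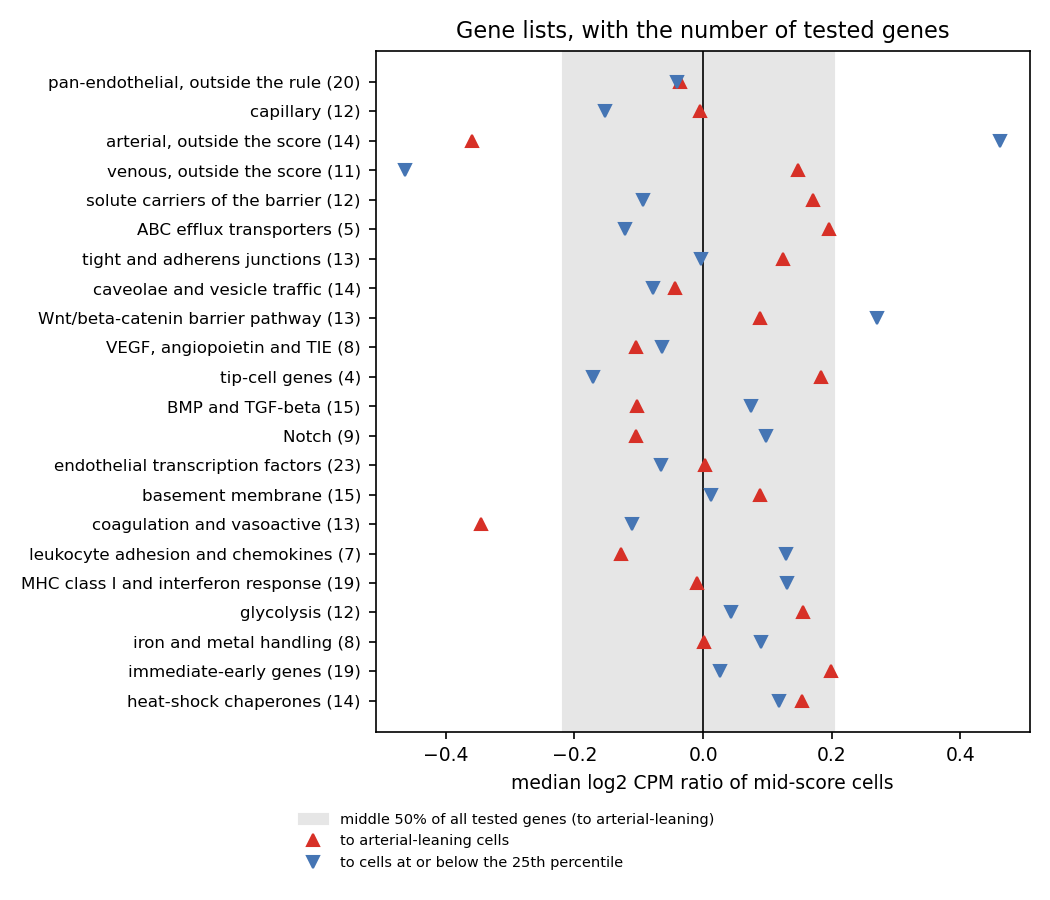
Median log2 CPM ratio (x axis) of mid-score ECs to arterial-leaning ECs (upward triangles) and to ECs at or below the 25th percentile (downward triangles) for each gene list, with the number of tested genes in parentheses. The grey band is the middle 50% of all tested genes against arterial-leaning ECs, from -0.22 to 0.20. Arterial genes lie at -0.36 and 0.46, and most barrier lists lie inside the band.

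Signalling genes of the endothelium were read by list, beside the background of 4.88% higher and 4.76% lower against arterial-leaning ECs and 2.94% and 2.5% against ECs at or below the 25th percentile. The VEGF receptor Kdr had 336 CPM and the receptor tyrosine kinase Tie1 180 CPM, and none of the 8 tested genes of the VEGF, angiopoietin and TIE list was past the limit, with medians of -0.10 and -0.06 to arterial-leaning ECs and to ECs at or below the 25th percentile. The BMP receptor partners Eng and Acvrl1 had 432 and 330 CPM and the target Id3 had 799 CPM, with list medians of -0.10 and 0.08 over 15 genes. Of these, Bmp6 and Tgfbr1 were higher than in arterial-leaning ECs and Tgfb2 higher than in ECs at or below the 25th percentile. Notch genes had medians of -0.10 and 0.10 over 9 genes, with Notch1 at 207 CPM and the ligand Dll4 at 109 CPM. Of the 9, the feedback inhibitor Nrarp was higher and the ligand Jag1 lower than in arterial-leaning ECs, and Jag2 was higher than in ECs at or below the 25th percentile. Tip-cell genes, which mark sprouting ECs, were low: Apln, Esm1, Kcne3 and Nid2 were at 0, and Pdgfb, which recruits PCs, led the list with 263 CPM. Of the 4 tip-cell genes tested, Adm, a vasodilator peptide, was higher and Plaur, the urokinase receptor, lower than in arterial-leaning ECs, and Adm was lower than in ECs at or below the 25th percentile. Both had 37.5 CPM in members, so these ratios rest on few UMIs. Of 10 cell cycle genes only Pcna, with 111 CPM, had enough UMIs for the comparison.

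Transcription factors, matrix genes and vasoactive genes were read against the same background shares. The flow-responsive factor Klf2 had 2212 CPM, Tcf4 1572 CPM and the ETS factors Fli1 and Erg 565 and 111 CPM, and none of 23 tested transcription factors was past the limit (medians 0.00 and -0.07). Sparc, a matrix-binding protein, had 1949 CPM, and the basement membrane chains Col4a1 and Col4a2 had 419 and 258 CPM. Of the 15 tested genes of the basement membrane list, Nid1 was higher than in arterial-leaning ECs with a log2 ratio of 1.35 (0.65 to 2.16), and against ECs at or below the 25th percentile Spock2 was higher with 0.61 and Fn1 lower with -0.65. The vasoconstrictor Edn1 had 516 CPM with UMIs in 46.9% of members. In the coagulation and vasoactive list (medians -0.35 and -0.11 over 13 genes), Vwf and Ednrb were higher and Procr, Nos3 and Ptgs2 lower than in arterial-leaning ECs, which made 2 and 3 of 13 beside 4.88% and 4.76% of all genes. Ptgs2 was also lower than in ECs at or below the 25th percentile. Leukocyte adhesion genes and chemokines had medians of -0.13 and 0.13 over 7 genes.

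Among metabolic genes, Gapdh, an enzyme of glycolysis, had 496 CPM in members and 1842 CPM in intermediate or marginal barcodes, Ldha had 239 and 549 CPM, and Hk2 was at 0 in members. More than 4-fold above both comparators were 0 of 14 glycolysis genes, 10 of 12 solute carriers and 17 of 19 endothelial genes outside the rule, beside 5.54% of all genes compared. For glycolysis this is near the background share. The choice of comparators built the difference in for endothelial genes, and likewise for the solute carriers, which were listed as carriers of the barrier. The iron store gene Fth1 had 1836 CPM. Of the 8 tested iron and metal genes, the metallothioneins Mt1 and Mt2 were higher than in ECs at or below the 25th percentile, with log2 ratios of 0.70 and 1.00. The share of all genes higher there was 2.94%. Hmox1 was higher than in arterial-leaning ECs, beside 4.88% of all genes. The pan-endothelial list itself had medians of -0.04 and -0.04 over 20 genes. Of these, Robo4 was higher and Ly6a lower than in arterial-leaning ECs, near the 4.88% and 4.76% of all genes.

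Slc6a6, which carries taurine and beta-alanine, had the widest differences between the groups among the 12 tested solute carriers of the barrier. It had 509 CPM (463 to 559) in members, 1501 CPM in arterial-leaning ECs and 130 CPM in ECs at or below the 25th percentile, with log2 ratios of -1.56 (-1.72 to -1.40) and 1.96 (1.70 to 2.23). Only 39 members had UMIs, with a lowest and a median of 0 and a highest of 93 per cell, so the level came from part of the cells. Split by the score genes, it had 91.2 CPM in ECs below 0, 177 CPM in ECs at 0, 641 CPM in members with A and V UMIs (median score 0.592), 382 CPM in members with A UMIs only (median score 1.11) and 1501 CPM in arterial-leaning ECs. Scores of the 2 member subsets overlapped and their depths differed, with medians of 9634 and 7112 UMIs. Few cells decided the level. With the study's limits on genes, UMIs and ribosomal share added, it was 418 CPM in members. In the 12 members scored from thinned cells it was 862 CPM. The gene lies at chr6:91684053-91759066 on the plus strand.

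Other genes differed in the same direction between the end groups. By the ratio of arterial-leaning ECs to ECs at or below the 25th percentile outside the score genes, the 10 highest were Nebl, Alpl, Slc6a6, Stmn2, Alox12, Cd24a, S100a6, Col18a1, Clu and Fbln2. S100a6, a calcium-binding protein, had 125 CPM in members, 500 CPM in arterial-leaning ECs and 56.6 CPM in ECs at or below the 25th percentile. The cytoskeletal protein Nebl had 63.6, 199 and 9.03 CPM in the same order, and Alpl, a phosphatase of arterial ECs, 28.4, 120 and 9.03 CPM. Each had UMIs in fewer than 20% of members. Between the member subsets the genes differed unevenly. Alpl had 30.1 CPM in members with A and V UMIs and 26.8 CPM in members with A UMIs only, with overlapping intervals. S100a6 had 201 and 51.4 CPM in the same order, and for Clu, a secreted chaperone, these levels were 183 and 29.0 CPM beside 165 CPM in arterial-leaning ECs. Glul, which makes glutamine and was chosen after its values were seen, had 1941 CPM in arterial-leaning ECs, 788 CPM in members with A UMIs only, 942 CPM in members with A and V UMIs and 324 CPM in ECs below 0. In the opposite direction, Bsg, a chaperone of lactate carriers also chosen after its values were seen, had 1378, 2524, 2136 and 3600 CPM in those groups. Ch25h, which hydroxylates cholesterol, had 98.9 CPM in members, 35.0 CPM in arterial-leaning ECs and 153 CPM in ECs at or below the 25th percentile, and the chemokine Cxcl10 had 44.3, 26.6 and 124 CPM.

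**Figure D5:**
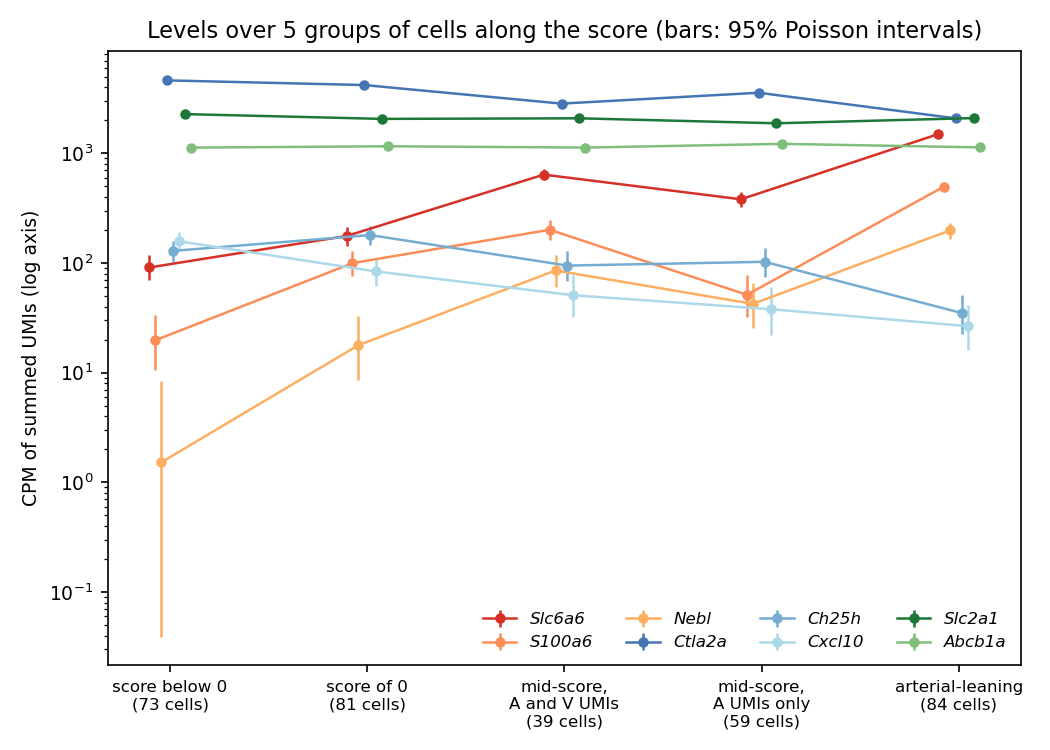
Levels (y axis, CPM on a log axis) of 8 genes in 5 groups of ECs ordered along the score, with members split by whether V genes had UMIs, and bars for 95% Poisson intervals. Slc6a6 goes from 91.2 CPM below 0 to 1501 CPM in arterial-leaning ECs, with 641 and then 382 CPM in the split members, and Ctla2a from 4641 to 2089 CPM, whereas Slc2a1 stays between 1885 and 2286 CPM and Abcb1a between 1131 and 1224 CPM.

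A few genes were past the limit in the same direction against both other groups of ECs. Of the 4245 genes compared, 19 were past 1.5-fold higher in members than in both groups and 33 past 1.5-fold lower. How many genes counting error alone would place there was not tested. Spata7, a ciliary protein, was the highest by this rule with 68.2 CPM against 28.0 and 27.1 CPM, but its UMIs came from 17 members with up to 15 in a single cell. Myd88, an adaptor of innate immune receptors, had 87.5 CPM against 40.6 CPM in arterial-leaning ECs and 50.9 CPM in ECs at or below the 25th percentile, with UMIs in 42.9% of members. Pfkp, an enzyme of glycolysis, had 101 CPM against 60.2 and 52.5 CPM with UMIs in 49.0% of members. All of these were genes of low level.

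The lower genes were led by haemoglobin genes, and here single cells decided the value. Members held 14 UMIs of erythroid genes, whereas 1 arterial-leaning EC held 1645 and 1 EC at or below the 25th percentile held 8274. All other cells of those groups held 10 and 16. Ifit1, an interferon-induced protein, had 30.7 CPM in members, 112 CPM in arterial-leaning ECs and 51.7 CPM in ECs at or below the 25th percentile, with log2 ratios of -1.85 and -0.74. Cd63, a tetraspanin chosen after its values were seen, had 0 UMIs in members, which allows up to 3.41 CPM, and 11 and 12 UMIs in the other groups of ECs. The 141 intermediate or marginal barcodes held 2585 UMIs of it.

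Heat-shock chaperones were among the genes that varied most from member to member. After thinning to 3282 UMIs, the Fano factor (variance over mean across cells, 1 for counting noise alone) had a median of 1.30 over 1074 genes and was above 5 for 41. Behind Malat1 with 25.3, the chaperones Hspb1 with 22.5 and Hspa1a with 21.1 were among the highest, and Fos had 11.9. Hspb1 had a lowest of 0, a median of 16 and a highest of 418 UMIs per cell. The 14 chaperone genes together took a lowest 0.419%, a median 1.49% and a highest 13.1% of a member's UMIs, and 19 immediate-early genes a lowest 0.261%, a median 4.06% and a highest 8.83%. The medians were 1.51% and 3.68% in arterial-leaning ECs. Across members the shares of both lists had a Spearman rho of 0.34 (n = 98 cells of 1 library), and the chaperone share had 0.32 with the UMI count. The calcification inhibitor Mgp, with a Fano factor of 15.2, was unlike these: 35 members had UMIs of it, with up to 75 in a single cell, and mural barcodes had 3909 CPM against 331 CPM in members.

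Members came from mice of both sexes by their RNA. Xist alone had UMIs in 50 members, Y-linked genes alone in 28, both in 1 and neither in 19. The 1 member with both, 1.02% of members (0.0258 to 5.55%), may be a doublet of cells of both sexes, and doublets of the same sex cannot be seen this way. Malat1 had no UMIs in 2 members with 3067 and 5052 UMIs in all, of which between 25.6% and 29.2% were of ribosomal protein genes, against a median of 12.7% over all members. Among ECs at or below the 25th percentile 5 lacked Malat1 and among arterial-leaning ECs 0.

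The NG2-DsRed library gave cells that the rule had not used. The same gates kept 15 of its 201 barcodes, with 100309 UMIs in all, and of these 3 lay at or above the upper limit, 5 between the limits and 7 at or below the lower limit found in the Tie2-GFP library. Another 44 barcodes with at least 4 endothelial genes had UMIs of 2 or more mural genes. Of the barrier genes, Slc2a1 had 1745 CPM and Slco1a4 1156 CPM in these 15 cells, and Abcb1a (598 CPM) and Abcg2 (628 CPM) were lower than in members. Cd74 had 817 CPM, from 5 cells. Iigp1 had 120 CPM in them against 1147 CPM in members, Hspb1 1705 against 4757 CPM, and Klf2, a flow-responsive transcription factor, 6310 against 2212 CPM. Whether library, mice, sorting, depth or software version accounts for these differences cannot be told apart with 1 library of each.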

How the data were processed

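The authors dissociated SV of each reporter line, sorted cells where enrichment was needed, and made 10x Genomics 3′ libraries. They deposited UMI counts per gene and barcode, and the Tie2-GFP matrix was written by Cell Ranger 7.0.0 and the NG2-DsRed matrix by a software version 3.0.0, per the file headers. The submitters' processing notes name mm10 and bcl2fastq 2.20.0.422. Aligner settings and the treatment of intronic reads were not given in the sources used here. The study's methods name scatter gates against doublets for sorted cells and scDblFinder, and do not say whether the deposited matrices precede that step. The matrices list 32285 and 27998 genes, and 27040 identifiers are in both.

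Counts were read as deposited with Python 3.11.15, numpy 2.4.6, scipy 1.17.1, pandas 2.3.3, scanpy 1.11.5 and matplotlib 3.10.9. Members were selected on their counts by the rule given above, and no further doublet step was applied. Levels are summed UMIs per 1000000 (CPM). Genes with at least 100 UMIs over the 3 groups of ECs were compared, with 0.5 UMIs added to each side of a log2 ratio and 1.5-fold as the limit. Specificity is the lower log2 ratio to intermediate or marginal barcodes (at least 3 markers) and to mural barcodes (at least 3 of 6 mural genes), with 4-fold as the limit. A count of 0 was bounded by 3 UMIs. Ratios and intervals were checked on simulated data.

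Genes named are those of the rule and label, the 25 most abundant, the 20 most specific, the 10 highest and 10 lowest against both other groups, the 10 most graded in each direction, the 10 of highest Fano factor, and of each gene list the 4 most abundant, those past the limit and, for other cell types, those at 0. Further list genes (the Wnt pathway and other pathways, read by role) and those said to be so were chosen after their values were seen. The members and the gene lists were chosen with earlier results of these data known. Alternatives were 19 planned and 6 chosen after seeing the data. Gene coordinates are those of GENCODE M21 on GRCm38 (mm10) and promoters those of RefSeq on GRCm38.p6.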

Additional observations from a re-analysis of the deposited data

Results flagged for a closer look

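The limit of 5% mitochondrial UMIs left out 7 barcodes of the Tie2-GFP library that passed both other gates, 2.04% of the 343 that did so, above the 0.875% that a count of 0 would allow. They had a median of 2685 UMIs and 5.77% mitochondrial UMIs, and all 7 had UMIs of Slc2a1, at 2284 CPM. They were left out of every value of the report, and only an alternative with a limit of 10% took them in.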

How the results depend on the processing

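No paired analysis was possible because each genotype was 1 library. Over 25 alternatives, 340 of 404 values were counted as unchanged, by their counting error or by a limit of 1.5 times the reported count. That tally includes some changes of sign: of 117 values of gene lists, 9 had the other sign than reported. The membership itself depended most on the depth behind the score. Scored from cells thinned to 3282 UMIs, 12 members remained (10 of them among the 98), Slc2a1 was at 1657 CPM and Abcb1a at 986 CPM, the capillary and venous lists had medians of -0.59 and -0.80 to ECs at or below the 25th percentile, and against arterial-leaning ECs the arterial list turned to 0.20, the venous list turned to -0.23 and the capillary list had -0.43. Levels that moved by over 1.5 times there were Mfsd2a (19.2 CPM), Ctla2a (1417), Fos (3716), Slc6a6 (862), Cd74 (441) and Tmem252 (891). The shares past the limit were then 14.4% higher and 17.3% lower against arterial-leaning ECs, and 14.5% and 18.3% against ECs at or below the 25th percentile. Including scores at the percentiles, chosen after seeing the data, gave 179 members. Taking only scores below 0 as the lower group, also chosen after seeing the data, made 4.94% higher.

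Leaving mitochondrial and ribosomal genes out of the total gave 2350 CPM for Slc2a1 and 1394 CPM for Abcb1a. In the order used above, the 4 shares were 9.93%, 9.77%, 7.12% and 7.35% with at least 30 UMIs, 2.32%, 1.87%, 1.48% and 0.838% with at least 300 UMIs, and 1.08%, 0.848%, 0.377% and 0.283% with a 2-fold limit. Thinned cells had Abcb1a UMIs in 93.8% of members. Scrublet marked 0 barcodes at its automatic threshold, which is no working doublet call, and 3 barcodes and 0 members were removed at the expected rate. Depth limits single genes below about 3.41 CPM.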
